A study of Homo sapiens with 8 samples.

Results

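A set of 8 immediate early genes was followed through recovery from RNA-protein crosslinking: EGR1 (ENSG00000120738), EGR2 (ENSG00000122877), EGR3 (ENSG00000179388), EGR4 (ENSG00000135625), NR4A1 (ENSG00000123358), IER2 (ENSG00000160888), IER3 (ENSG00000137331) and IER5 (ENSG00000162783). They were picked by gene ID as members of known immediate early families, with earlier results of these data known. Counts of these genes set beside all transcripts are therefore descriptive and not independent support. All 8 were found among the 19580 transcripts of the table, which lists 1 transcript per gene. The measurement was ribosome footprint density in HAP1 cells, a near-haploid, adherent human line that descends from a chronic myeloid leukaemia line. The groups were RNF14 knockout cells at 30 min and at 0 min of recovery, and wild-type cells (WT) at 30 min and at 0 min, with 2 biological replicates each. Every group had been given 5 uM 4-thiouridine (4SU) over 18 h and then 6 kJ/m2 of UVA light, so the 0 min libraries are irradiated cells and no untreated group was analysed here. The ubiquitin ligase RNF14 is known from the response to stalled ribosomes. The labels do not say whether the knockout is a single clone. The comparisons ask how footprints on these genes changed in the 30 min after irradiation, and whether the loss of RNF14 altered their level or their change.

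Immediate early genes are transcribed within minutes of a growth factor, stress or other signal, without the need for newly made protein, and their mRNAs are short-lived. MAP kinases and related pathways reach them through factors already in the nucleus, among them serum response factor with its ETS partners, which bind the CArG box, and CREB, which binds the CRE. EGR1 to EGR4 are zinc finger transcription factors that bind GC-rich sites, NR4A1 is an orphan nuclear receptor, and the IER genes encode small regulatory proteins.

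Values are RPKM, reads per kilobase of transcript length, scaled to the library's total reads. Whole reads could be recovered from them, and they are given beside the RPKM because several of these genes rest on few. Libraries at 30 min held 323946 to 717828 reads and libraries at 0 min held 778683 to 1241975, so depth and time go together. Knockout at 30 min replicate 1 was the shallowest. The 8 genes took 1648 reads over the 8 libraries, of which EGR1 had 881, IER2 287, NR4A1 231, IER5 145, IER3 44, EGR3 31, EGR2 16 and EGR4 13. Without matched RNA libraries, an altered RNA level and altered translation cannot be told apart, nor can fewer cells with a transcript and less of it per cell. Without gene names in the table, neither RNF14 itself nor markers of HAP1 cells were checked. Tests are limma-trend on log2(RPKM + 1) over 11920 transcripts with a mean RPKM of at least 1, with Benjamini-Hochberg adjusted p below 0.05 as the threshold. All 8 genes passed that filter, EGR2, EGR3 and EGR4 narrowly, with means of 1.15, 1.15 and 1.21 RPKM. Over all tested transcripts, the median recovery change on the log2 scale was -0.12 in the knockout and -0.26 in WT. These medians depend on the scaling. With each library centred on its own median they were -0.046 and 0.024. P-values rest on the spread between 2 biological replicates a group, pooled over the 4 groups. That spread is also drawn toward a trend with level over all tested transcripts, so it is not each gene's own alone.

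**Figure D1:**
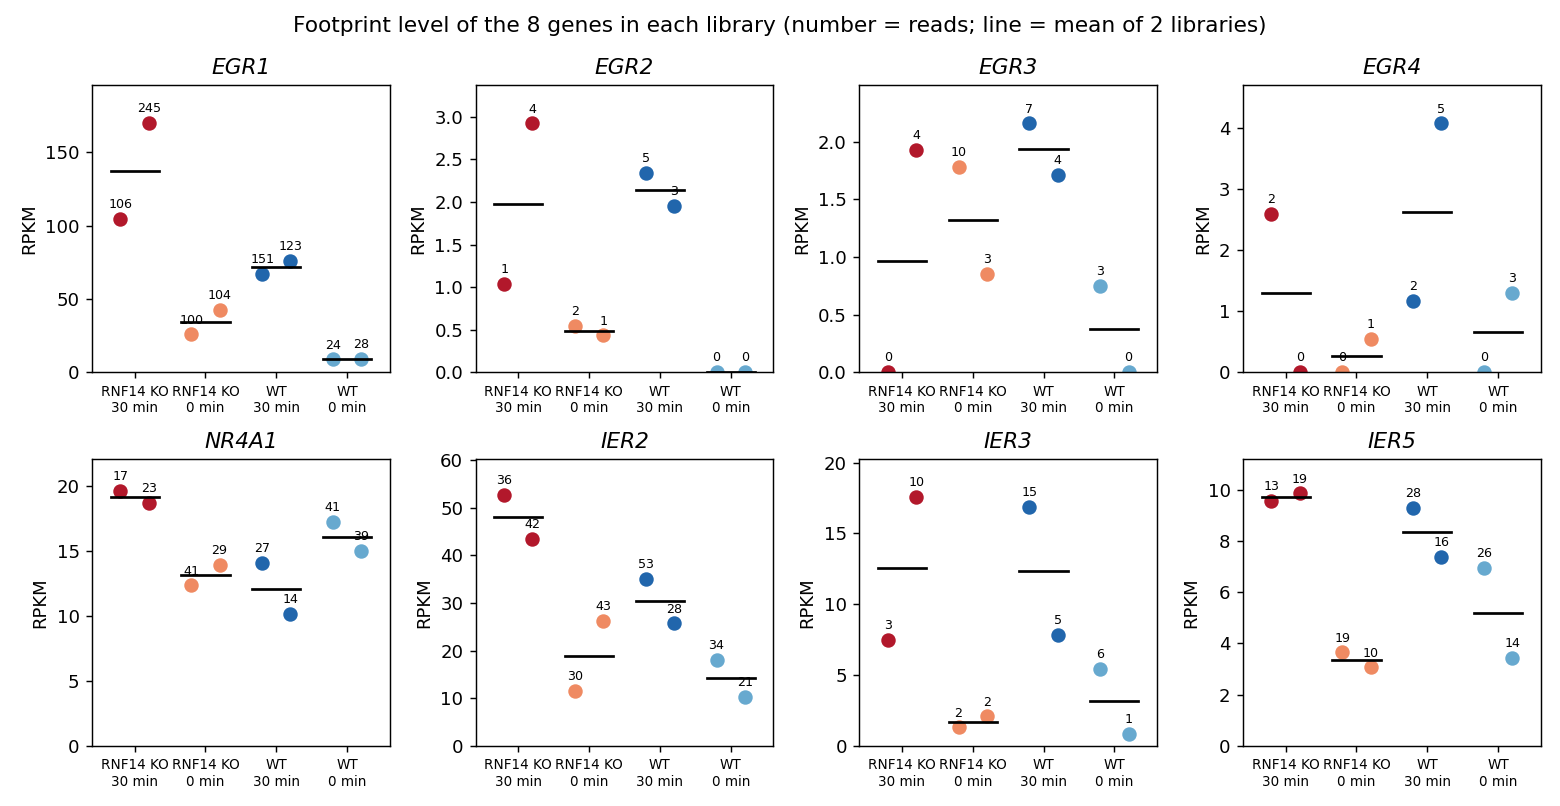
Footprint level in RPKM (y axis, linear, a scale of its own per gene) of each of the 8 genes in each library, by group on the x axis. Points are libraries, the number beside a point is its reads, and lines are means of 2 libraries. EGR1 is highest in the knockout at 30 min, then in WT at 30 min, the knockout at 0 min and WT at 0 min, with no overlap, and NR4A1 stays between 10.1 and 19.6 RPKM.

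Together the genes had higher summed shares of reads after 30 min of recovery in both genotypes. In RPM (reads scaled to the library total as RPKM is, but not to length) they took 549 and 756 in the knockout at 30 min, against 164 and 248 in the knockout at 0 min. In WT they took 401 and 383 RPM at 30 min, against 150.5 and 109 at 0 min. The lowest of the 4 later libraries thus exceeded the highest of the 4 earlier ones. EGR1 made up 59.6% and 70.6% of these reads in the knockout at 30 min and 49.0% and 53.9% in the knockout at 0 min. In WT it made up 52.4% and 62.1% at 30 min and 17.9% and 26.4% at 0 min. Without EGR1 the remaining genes still had higher sums in every later library. In the knockout they had 222.3 and 222.1 RPM at 30 min against 83.7 and 114 at 0 min, and in WT 191 and 145 at 30 min against 124 and 80.3 at 0 min.

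**Figure D2:**
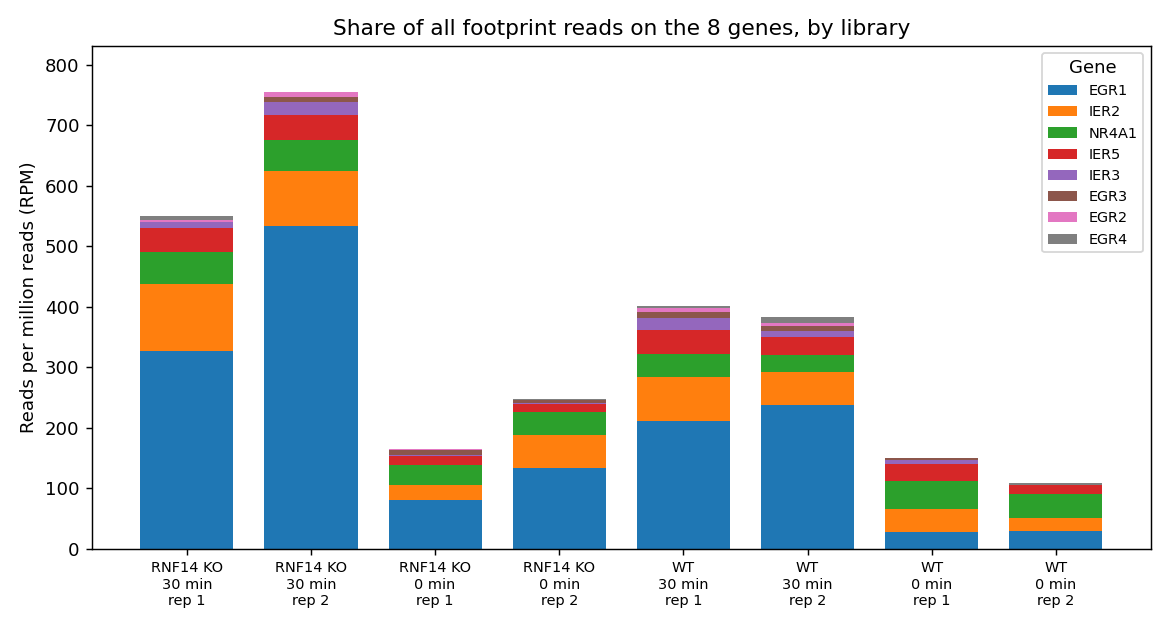
Reads on the 8 genes in RPM of each library (y axis), stacked by gene, with 1 bar per library. The bars at 30 min reach 383 to 756 RPM and those at 0 min 109 to 248, and EGR1 is the largest segment in every library except the pair of WT at 0 min.

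During recovery in the knockout 1 of the 8 genes rose past the threshold, EGR1, where 1.97% of all tested transcripts were called in either direction. In WT, too, EGR1 alone of the 8 rose, against 3.23% of all tested transcripts. Averaged over the genotypes, with 4 libraries at 30 min against 4 at 0 min, EGR1, IER2, IER3 and IER5 rose, 4 of 8 genes against 7.79% of all tested transcripts. None of the 8 was called lower in these comparisons. EGR2, EGR3 and EGR4 are left out of the recovery counts in the rest of this paragraph. EGR2 and EGR4 reached the filter on low values through their 30 min groups, as EGR3 did in large part through WT at 30 min. The other 5 genes also had a mean RPKM of at least 5. IER3 and IER5 reached that mean through their 30 min groups. IER3 had means of 1.69 RPKM in the knockout and 3.14 in WT at 0 min, and IER5 had 3.35 and 5.19. The medians and counts below include IER3 and IER5, so they are not independent of the rise and serve as description only. The choice of genes with earlier results known limits all these counts in the same way. Over the 5 genes the median log2 change was 1.41 in the knockout, 1.08 in WT and 1.24 for the average. Over all transcripts with a mean RPKM of at least 5 it was -0.14, -0.26 and -0.21. The change was above 0 for 5 of 5 genes in the knockout and for 4 of 5 in WT, with NR4A1 the exception, as it was for 38.7% and 30.7% of those transcripts. Both libraries at 30 min lay above both at 0 min for 5 of 5 genes in the knockout and 4 of 5 in WT, which held for 18.6% and 14.0% of all tested transcripts. For EGR1, IER3 and IER5 every later library exceeded every earlier one, 3 of 5 genes beside 3.17% of all tested transcripts. Of these genes EGR1 alone had a mean of at least 5 RPKM in both 0 min groups, with 34.1 in the knockout and 8.89 in WT. The count is therefore not support for a rise of the set. The shares without overlap cover transcripts with a mean RPKM of at least 1. They were not computed for a mean of at least 5, so they are not like for like.

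**Figure D3:**
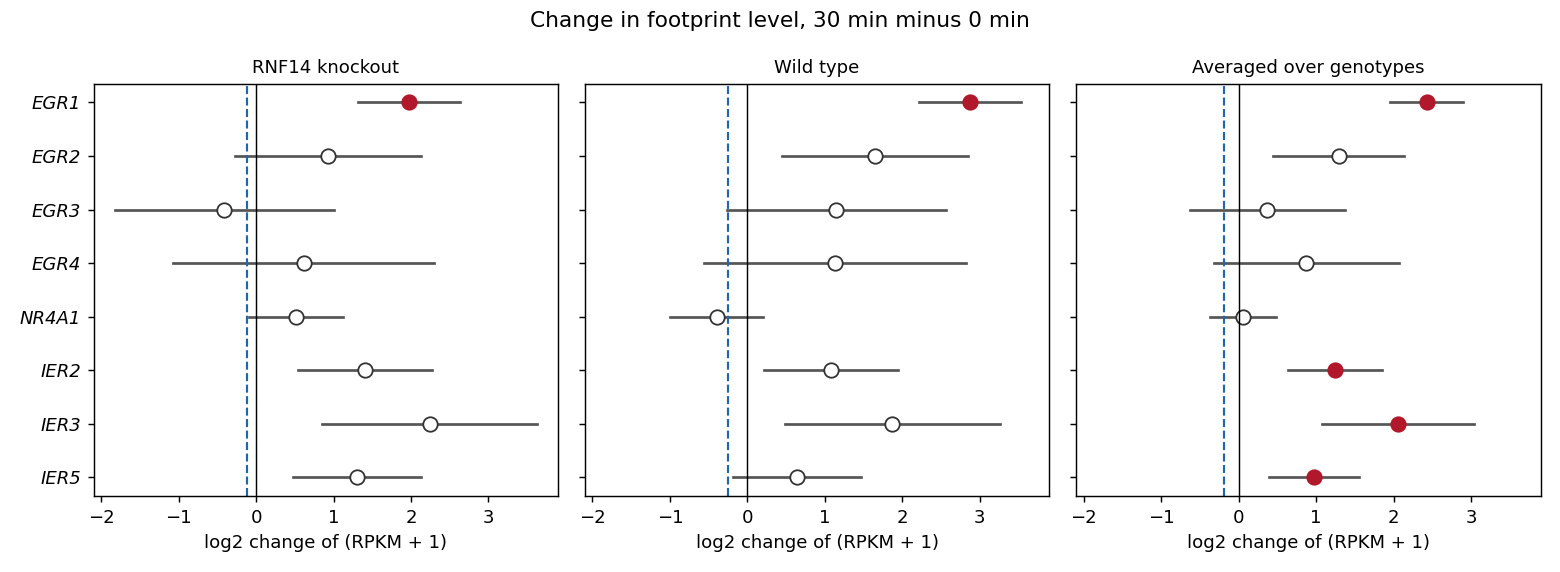
Log2 change of (RPKM + 1), 30 min minus 0 min (x axis), for each gene in the knockout, in WT and averaged over both. Circles are limma estimates with 95% intervals, filled where the adjusted p is below 0.05, and the dashed line is the median of all tested transcripts. EGR1 is filled in all 3 panels, at 1.98, 2.87 and 2.42, and IER2, IER3 and IER5 only in the average.

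EGR1 encodes a zinc finger transcription factor, also known as ZIF268 or KROX-24, that is a classic early response gene. The gene lies at chr5:138465479-138469303 (GRCh38, RefSeq), and the counted transcript is 3137 nt long. EGR1 had 104 and 170.1 RPKM in the knockout at 30 min, on 106 and 245 reads, against 25.7 and 42.6 RPKM in the knockout at 0 min, on 100 and 104 reads. In WT it had 67.1 and 75.9 RPKM at 30 min, on 151 and 123 reads, against 8.59 and 9.19 RPKM at 0 min, on 24 and 28 reads. Neither genotype's groups overlap. On the log2(RPKM + 1) scale EGR1 rose by 1.98 in the knockout (SE 0.30, limma adjusted p = 0.0111) and by 2.87 in WT (SE 0.30, limma adjusted p = 0.000674). Averaged over genotypes it rose by 2.42 (SE 0.21, limma adjusted p = 0.000126). By size this was the 4th largest increase among 11920 transcripts in WT, the 60th in the knockout and the 5th for the average. As a share of reads, EGR1 was 4.44 times higher at 30 min in the knockout (exact 95% binomial interval 3.73 to 5.30) and 7.95 times higher in WT (5.89 to 10.9). These intervals cover counting error only. In each WT library at 0 min EGR1 stood above 33.2% and 39.7% of the tested transcripts, a below-median level, and in the knockout at 30 min above 93.5% and 96.0%. The call in the knockout was lost without knockout 0 min replicate 1 (limma adjusted p = 0.121), when only knockout libraries were fitted (0.0937) and without a mean-dependent prior variance (0.112). The call in WT was lost only without that dependence (limma adjusted p = 0.0589), among 19 alternatives.

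Levels of EGR1 also lay apart between genotypes, without passing the threshold. At 30 min the knockout libraries had 104 and 170.1 RPKM against 67.1 and 75.9 in WT, 0.89 apart on the log2 scale (SE 0.30, limma adjusted p = 0.319). At 0 min they had 25.7 and 42.6 RPKM against 8.59 and 9.19 in WT, 1.79 apart on the log2 scale (SE 0.30, limma adjusted p = 0.0524). The order of the 4 groups was thus knockout at 30 min, WT at 30 min, knockout at 0 min and WT at 0 min, with a gap between the libraries of each pair of neighbours. The difference at 0 min passed in 6 of 19 alternatives, with limma adjusted p from 0.000304 with a count model (limma voom) to 0.0485 after quantile normalization. Without knockout 0 min replicate 2 the limma adjusted p was 0.535. EGR1 gained less in the knockout's recovery than in WT's by 0.89 on the log2 scale, with a 95% interval of the difference from -1.83 to 0.04 (SE 0.42, limma adjusted p = 0.389). That interval holds 0, and it also holds differences larger than the estimate. Knockout replicates lay farther apart for EGR1 than WT replicates: the higher knockout library was 1.63 times the lower at 30 min and 1.66 times at 0 min, against 1.13 and 1.07 times in WT.

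Promoter sequences are shown for the response elements they hold. RefSeq windows from 250 bases before to 50 after the annotated start were searched for 6 of the 8 genes (EGR1, EGR2, EGR4, NR4A1, IER2 and IER5), with 9 windows in all, since EGR2 has 3 annotated starts and NR4A1 has 2. Motifs were searched on both strands: the CArG box, the CRE (TGACGTCA) and its core (TGACG, which lies within the full CRE and reads CGTCA on the other strand), an ETS core (CCGGAA) and an EGR site (GCGGGGGCG). EGR1 held 2 CArG boxes, from 105 to 96 and from 83 to 74 bases before the start, and EGR2 held 1 at start 3, from 71 to 62 bases before it. Of all 35116 RefSeq windows, 1.29% held a CArG box and 0.0313% held 2 or more. There were 2 CRE cores in EGR1, 2 at that EGR2 start, 2 in EGR4 and 1 in IER2, and at least 1 in 24.6% of all windows. An ETS core stood in the windows of IER2, IER5 and the first NR4A1 start, and in 17.2% of all windows. The full CRE and the EGR site, in 1.85% and 5.07% of all windows, matched 0 of the 9. A match describes letters only, and no factor binding was measured. The windows printed are those of EGR1, the gene with the largest called increase, of EGR2 and of IER2. EGR2 was the only other EGR gene searched that held a CArG box, and IER2 was a called gene without one. No window of EGR3 was searched. They run 5′ to 3′ on the gene's strand, with CArG boxes and CRE cores in capitals. EGR1 is on the plus strand at chr5:138465229-138465528, EGR2 on the minus strand at chr10:62816317-62816616 and IER2 on the plus strand at chr19:13150161-13150460, all GRCh38.p14 from RefSeq.
EGR1: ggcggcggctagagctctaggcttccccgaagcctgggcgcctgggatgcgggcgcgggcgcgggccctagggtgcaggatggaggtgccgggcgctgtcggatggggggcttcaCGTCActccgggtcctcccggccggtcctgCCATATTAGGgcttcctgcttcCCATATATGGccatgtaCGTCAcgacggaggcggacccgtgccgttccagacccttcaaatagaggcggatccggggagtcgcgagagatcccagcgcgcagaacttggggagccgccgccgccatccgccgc
EGR2: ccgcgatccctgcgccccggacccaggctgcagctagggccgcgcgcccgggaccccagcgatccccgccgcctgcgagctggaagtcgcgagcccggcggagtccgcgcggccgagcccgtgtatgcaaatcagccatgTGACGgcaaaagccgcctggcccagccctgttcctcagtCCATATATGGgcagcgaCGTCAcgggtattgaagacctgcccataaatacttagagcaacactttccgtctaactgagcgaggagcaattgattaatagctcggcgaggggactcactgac
IER2: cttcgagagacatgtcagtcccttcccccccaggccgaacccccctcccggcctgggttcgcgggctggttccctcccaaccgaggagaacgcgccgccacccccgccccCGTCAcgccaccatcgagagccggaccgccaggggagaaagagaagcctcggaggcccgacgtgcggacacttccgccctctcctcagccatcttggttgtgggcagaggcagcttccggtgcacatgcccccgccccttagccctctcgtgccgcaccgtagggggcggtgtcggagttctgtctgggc

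**Figure D4:**
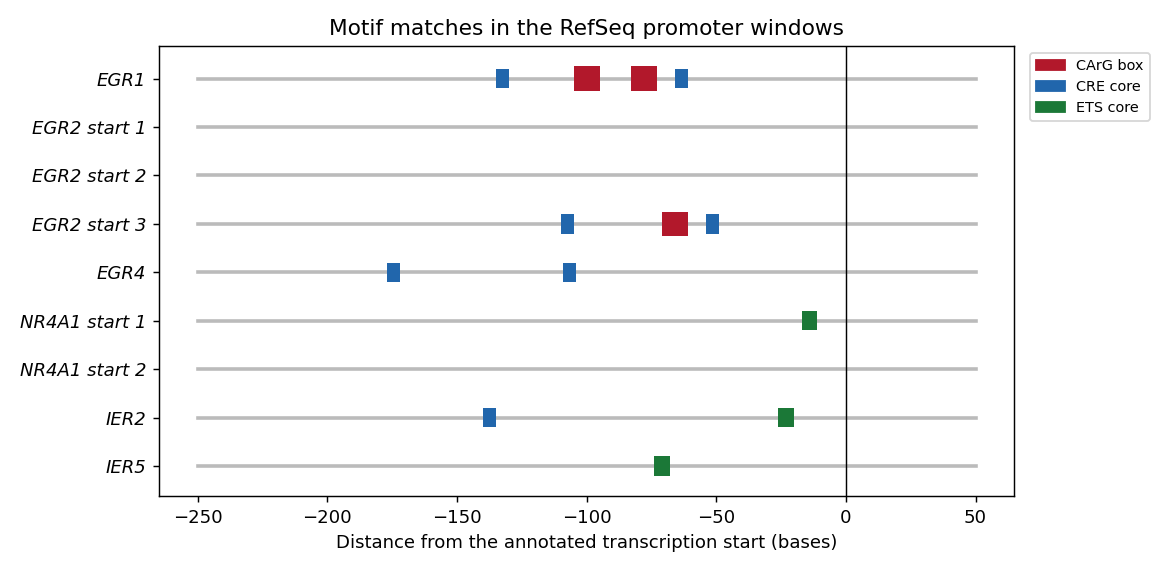
Motif matches in the 9 RefSeq promoter windows of 6 genes, by distance in bases from the annotated start (x axis), with 1 row per start. Boxes are CArG boxes, CRE cores and ETS cores on either strand. CArG boxes appear in EGR1, with 2, and at EGR2 start 3, with 1.

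EGR2 (KROX20) is a zinc finger factor known for its part in myelination, and its gene lies at chr10:62811996-62819167. EGR2 had 1.04 and 2.92 RPKM in the knockout at 30 min, on 1 and 4 reads, against 0.541 and 0.431 RPKM in the knockout at 0 min, on 2 and 1 reads. In WT it had 2.34 and 1.95 RPKM at 30 min, on 5 and 3 reads, and 0 reads in both libraries at 0 min. The groups do not overlap in either genotype, but each rests on 8 reads or fewer. Against a floor of 3 reads over the group, the WT share was at least 4.02-fold higher at 30 min. In the knockout the ratio of shares was 4.30 and its exact 95% counting interval 0.837 to 27.7. The log2 changes of 0.93 in the knockout (SE 0.54, limma adjusted p = 0.396), 1.65 in WT (SE 0.54, limma adjusted p = 0.121) and 1.29 for the average (SE 0.38, limma adjusted p = 0.0686) did not pass. The average passed in 4 of 17 alternatives: without a filter (limma adjusted p = 0.0376), after quantile normalization (0.0440), without knockout 30 min replicate 1 (0.0305) and with the voom count model on recovered reads (0.00979). Voom also called EGR2 in WT (limma adjusted p = 0.0291), and with voom the fitted change of a gene with 0 reads in a group depends on the prior count.

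Neither EGR3 nor EGR4 passed the test in any recovery comparison, on 31 and 13 reads over all libraries. EGR3, a family member known from muscle spindle development in mice, lies on chromosome 8 from 22687659 to 22693480. EGR3 had 0 and 1.93 RPKM in the knockout at 30 min against 1.78 and 0.853 in the knockout at 0 min, on 4 against 13 reads. WT cells had 2.16 and 1.72 RPKM at 30 min against 0.746 and 0 at 0 min, on 11 against 3 reads, a share 5.53 times higher (exact 95% counting interval 1.46 to 30.9). The fitted log2 changes were -0.41 in the knockout (SE 0.64, limma adjusted p = 0.786) and 1.15 in WT (SE 0.64, limma adjusted p = 0.333). The knockout's libraries overlap, and those of WT do not.

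EGR4, at chr2:73290929-73293548, is a further zinc finger member of the family. EGR4 had 2.60 and 0 RPKM in the knockout at 30 min against 0 and 0.541 in the knockout at 0 min, on 2 reads against 1. WT cells had 1.17 and 4.08 RPKM at 30 min against 0 and 1.30 at 0 min, on 7 against 3 reads. Both pairs of groups overlap. Over both genotypes the share was 4.33 times higher at 30 min, on 9 against 4 reads (exact 95% counting interval 1.21 to 19.2). The fitted log2 changes were 0.61 in the knockout (SE 0.76, limma adjusted p = 0.725) and 1.13 in WT (SE 0.76, limma adjusted p = 0.426).

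NR4A1, also called NUR77, is an orphan nuclear receptor that binds DNA and can act in apoptosis. Its gene lies at chr12:52022832-52059503, and the counted transcript is 2678 nt long. It was the steadiest of the 8 genes, with the highest library 1.94 times the lowest. NR4A1 had 19.6 and 18.7 RPKM in the knockout at 30 min, on 17 and 23 reads, against 12.3 and 13.9 RPKM in the knockout at 0 min, on 41 and 29 reads. In WT it had 14.0 and 10.1 RPKM at 30 min, on 27 and 14 reads, against 17.2 and 15.0 RPKM at 0 min, on 41 and 39 reads. The knockout's libraries at 30 min thus lay above those at 0 min, and WT's lay below, without overlap in either. The former held for 18.6% of all tested transcripts, and the share for the latter was not counted. Neither change passed: the log2 change was 0.52 in the knockout (SE 0.27, limma adjusted p = 0.348) and -0.40 in WT (SE 0.27, limma adjusted p = 0.432). The average was 0.06 (SE 0.19, limma adjusted p = 0.888), with a 95% interval from -0.37 to 0.49, so a change of the size seen for EGR1 lies outside it.

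IER2 encodes a nuclear protein of the immediate early response and lies at chr19:13150411-13154911. IER2 had 52.7 and 43.3 RPKM in the knockout at 30 min, on 36 and 42 reads, against 11.4 and 26.2 RPKM in the knockout at 0 min, on 30 and 43 reads. Its WT levels were 35.0 and 25.7 RPKM at 30 min, on 53 and 28 reads, against 18.1 and 10.2 RPKM at 0 min, on 34 and 21 reads. Within each genotype the groups do not overlap, while the higher knockout library at 0 min lay just above the lower WT library at 30 min. Averaged over genotypes IER2 rose by 1.24 on the log2 scale (SE 0.28, limma adjusted p = 0.0243), and its share of reads was 2.39 times higher at 30 min (exact 95% counting interval 1.88 to 3.04). The separate log2 changes of 1.41 in the knockout (SE 0.39, limma adjusted p = 0.0925) and 1.08 in WT (SE 0.39, limma adjusted p = 0.153) did not pass. With the voom count model both did, at limma adjusted p = 0.00249 in the knockout and 0.0254 in WT.

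IER3, also known as IEX-1, encodes a small membrane-associated protein that modulates cell death, and lies at chr6:30743199-30744547. IER3 had 7.49 and 17.6 RPKM in the knockout at 30 min, on 3 and 10 reads, against 1.30 and 2.08 RPKM in the knockout at 0 min, on 2 and 2 reads. In WT it had 16.9 and 7.83 RPKM at 30 min, on 15 and 5 reads, against 5.45 and 0.832 RPKM at 0 min, on 6 and 1 reads. Every library at 30 min lay above every library at 0 min. Averaged over genotypes IER3 rose by 2.06 on the log2 scale (SE 0.44, limma adjusted p = 0.0218), the 9th largest increase of all tested transcripts. Its share of reads was 5.77 times higher at 30 min, on 33 against 11 reads (exact 95% counting interval 2.85 to 12.7). The log2 changes of 2.24 in the knockout (SE 0.62, limma adjusted p = 0.0946) and 1.87 in WT (SE 0.62, limma adjusted p = 0.128) did not pass alone, and with the voom count model the one in WT did (limma adjusted p = 0.0487).

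IER5, at chr1:181088700-181092900, encodes a regulator of the heat shock factor HSF1, and its counted transcript is 4201 nt long. IER5 had 9.55 and 9.85 RPKM in the knockout at 30 min, on 13 and 19 reads, against 3.64 and 3.06 RPKM in the knockout at 0 min, on 19 and 10 reads. WT libraries had 9.29 and 7.38 RPKM at 30 min, on 28 and 16 reads, against 6.95 and 3.43 RPKM at 0 min, on 26 and 14 reads. The later libraries all exceeded the earlier ones, narrowly in WT. Averaged over genotypes IER5 rose by 0.97 on the log2 scale (SE 0.26), just past the threshold (limma adjusted p = 0.04996), with a share of reads 2.12 times higher (exact 95% counting interval 1.51 to 2.98). The log2 changes of 1.30 in the knockout (SE 0.37, limma adjusted p = 0.102) and 0.65 in WT (SE 0.37, limma adjusted p = 0.351) did not pass, and with the voom count model the one in the knockout did (limma adjusted p = 0.0451).

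The average calls of IER2, IER3 and IER5 were not kept in every alternative, while that of EGR1 held in all 18. In the main fit IER2, IER3 and IER5 rose by 1.24, 2.06 and 0.97 on the log2 scale. Dropping replicate 2 of WT at 30 min raised these to 1.35, 2.31 and 1.05. Dropping replicate 1 of that group lowered them to 1.14, 1.80 and 0.90. They were 1.05, 1.60 and 0.76 without replicate 2 of WT at 0 min. With replicate 1 of the knockout at 0 min dropped, they were 0.96, 1.95 and 1.02. In WT recovery alone the main fit gave 1.08, 1.87 and 0.65 for IER2, IER3 and IER5. These were 0.70, 0.96 and 0.22 without replicate 2 of WT at 0 min. Without replicate 1 of that group they were 1.46, 2.78 and 1.07. Why calls were lost with 1 library fewer was not tested. IER2 kept its call in 12 of 18 alternatives, IER3 in 10 and IER5 in 6. Of the 4 genes called for the average, EGR1 alone was called without WT 0 min replicate 2, WT 30 min replicate 1, WT 30 min replicate 2 or knockout 0 min replicate 1. The highest limma adjusted p over the 18 alternatives was 0.0998 for IER2, 0.0938 for IER3 and 0.176 for IER5, with log2 changes of at least 0.96, 1.22 and 0.61.

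Between the genotypes, 0 of 8 genes passed at 30 min, where 0.126% of all tested transcripts were called, and 0 of 8 at 0 min, where 0.168% were called. The knockout's libraries lay above WT's without overlap for 4 genes at 30 min, EGR1, NR4A1, IER2 and IER5, beside 20.2% of all tested transcripts. At 0 min they did so for EGR1, EGR2 and EGR3, 3 genes beside 21.5% of all tested transcripts. EGR2 there rests on 3 reads against 0, and EGR3 on 13 against 3. Of the 5 genes with a mean RPKM of at least 5, EGR1 alone lay above WT at 0 min without overlap. NR4A1 lay below WT at 0 min without overlap, and the share of all tested transcripts that did so was not counted. NR4A1 at 30 min had 19.6 and 18.7 RPKM in the knockout against 14.0 and 10.1 in WT, 0.64 apart on the log2 scale (SE 0.27, limma adjusted p = 0.430). At 0 min it had 12.3 and 13.9 RPKM in the knockout against 17.2 and 15.0 in WT, or -0.27 on the log2 scale (SE 0.27, limma adjusted p = 0.695). IER2 at 30 min differed by 0.65 (SE 0.39, limma adjusted p = 0.566) and IER3, at 12.5 ± 7.15 in the knockout and 12.4 ± 6.41 RPKM in WT (SD, n = 2 each), had almost the same mean. The difference in recovery between the genotypes was called for 0 of 8 genes, and for 0.00839% of all tested transcripts. Its estimates ran from -1.56 for EGR3 to 0.91 for NR4A1, with 95% intervals of -3.56 to 0.45 and 0.06 to 1.77. An unadjusted limma p below 0.05 was reached by NR4A1 alone for this difference, by EGR1 and NR4A1 at 30 min and by EGR1 at 0 min. Among all 11920 tested transcripts it was reached by 1590 for this difference, 1295 at 30 min and 1621 at 0 min. For this difference and at 0 min, the share among the 8 genes was thus close to that among all transcripts. With the voom count model 0 of 8 genes were called for this difference or for the genotypes at 30 min, and EGR1 was called at 0 min.

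**Figure D5:**
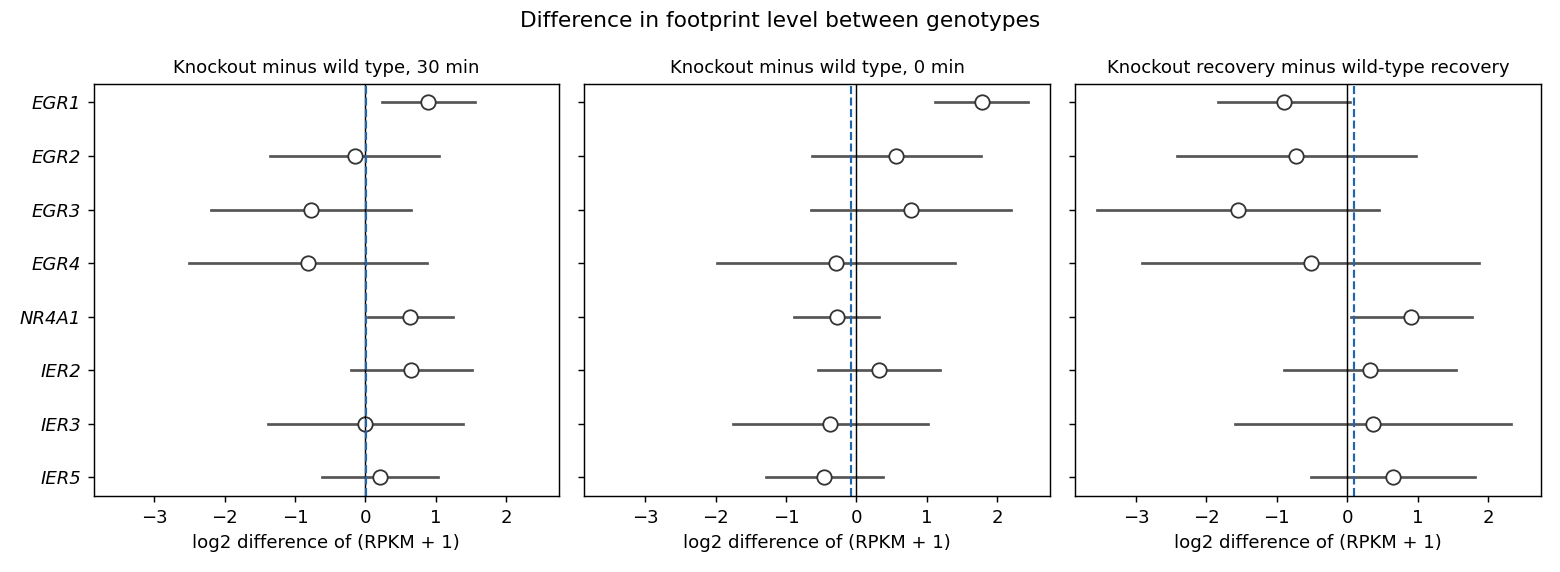
Log2 difference of (RPKM + 1) for each gene (x axis): knockout minus WT at 30 min, knockout minus WT at 0 min, and knockout recovery minus WT recovery. Circles are limma estimates with 95% intervals, and the dashed line is the median of all tested transcripts. No circle is filled, as 0 of 8 adjusted p-values were below 0.05; EGR1 at 0 min, at 1.79, lies farthest from 0 among the genotype differences.

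The genes did not all share a profile over the 8 libraries. Against the mean of their standardized log2 profiles, Pearson's r was 0.94 for IER3, 0.91 for IER2, 0.91 for EGR2, 0.89 for IER5 and 0.89 for EGR1, and 0.39, 0.29 and 0.25 for EGR3, EGR4 and NR4A1. Each gene is part of that mean, and depth and time change together over these libraries. Among 9130 other transcripts with a mean RPKM of at least 5, the closest to it was ENSG00000074800.16, of 1781 nt, with r = 0.986. That transcript had 823 and 933 RPKM in the knockout at 30 min against 359 and 358 in the knockout at 0 min, and 806 and 722 in WT at 30 min against 335 and 274 in WT at 0 min. The second, ENSG00000117118.10, of 1015 nt, had r = 0.979, and the next 3 had r from 0.970 to 0.971. The table pairs these IDs with no names.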

How the data were processed

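Ribosome footprints were measured in 8 libraries of HAP1 cells, lysed with cycloheximide, digested with RNase I and amplified by PCR, per the labels' protocols; no molecular identifiers are mentioned, so read intervals cover counting error only. The deposited values are RPKM, made by the authors. Tools and build, per the submitters' processing notes, were cutadapt, STAR 2.7.10a and hg38. How the authors chose transcripts, which region they counted and whether rRNA was removed is not stated in the labels, and each could shift levels. RPKM times length gave whole reads for 100% of values above 0, within a tolerance of 0.05. An unexplained suffix, take2, follows the name of knockout 30 min replicate 1, which was matched by its genotype, time and replicate number. Whether that library was handled differently is not stated in the labels.

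All 8 libraries entered 1 limma-trend fit (limma 3.58.1, R 4.3.3) of 4 group means on log2(RPKM + 1), two-sided, without a replicate block, with Benjamini-Hochberg adjustment over 11920 transcripts. It was also run on simulated counts, with a spread between replicates that was set by hand and not estimated from these libraries. That run does not show how the fit performs at the spread of these 8 genes. Fold changes on this scale understate changes of low genes. Ratios of reads carry exact (Clopper-Pearson) intervals. Alternatives were pseudocounts of 0.1 and 5, other filters and scalings, a replicate block, no trend, fewer groups, limma voom on recovered reads, and leaving out each library.

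The members and lists were chosen with earlier results of these data known. All 8 genes are named, with symbols assigned by Ensembl ID; like transcripts are the 5 of highest correlation. The RefSeq table held 0 Ensembl IDs, so the other lists of pathway genes and cell markers were not run. Python 3.11.15, numpy 2.4.6, pandas 2.3.3, scipy 1.17.1 and matplotlib 3.10.9 made summaries and figures.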

Additional observations from a re-analysis of the deposited data

Results flagged for a closer look

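NR4A1 was flagged because its libraries moved in opposite directions in the 2 genotypes. Both knockout libraries at 30 min lay above both at 0 min, and both WT libraries at 30 min lay below both at 0 min. Most transcripts fell in WT: the median log2 change was -0.26 and 31.2% had a change above 0. The NR4A1 change in WT was -0.40, and -0.12 with median centring. How many of all tested transcripts show such a reversal was not counted. The knockout's recovery exceeded WT's by 0.91 on the log2 scale (SE 0.38, limma adjusted p = 0.354), so the difference did not pass the correction. Over 18 alternatives it ran from 0.70 to 1.13, with limma adjusted p from 0.254 to 0.648. It rests on 17 to 27 reads in 3 of the 4 libraries at 30 min and 14 in the other.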

How the results depend on the processing

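The number of the 8 genes called in each comparison depended on the model. With limma voom on recovered reads it was 4 for recovery in WT and 3 for recovery in the knockout, against 1 each in the main analysis, and without a trend in the prior it was 0 for both and 1 for the average. Fitting the knockout libraries alone gave 0. Leaving out each library in turn gave 0 to 1 for the knockout's recovery, 1 to 4 for the average and 0 to 1 for the genotypes at 0 min. The last count was also 1, EGR1, with a mean RPKM of at least 5, after quantile normalization, with voom, and with the replicate number as a block. The replicate block left 3 calls for the average, where IER5 had limma adjusted p = 0.0540, and 1 in each recovery. The labels do not say that a replicate number pairs libraries, and the correlation of replicate differences between groups ran from -0.079 to 0.067, so the block was kept out of the main analysis. Over all transcripts, calls for the average numbered 929 (292 higher, 637 lower), against 2165 with TPM scaling (219 higher, 1946 lower), 432 with median centring (342 higher, 90 lower), 669 with quantile normalization (422 higher, 247 lower), 99 without a trend and 217 to 1158 with a library left out. Recovery in WT gave 385 calls (213 higher, 172 lower), 1385 with TPM (161 higher, 1224 lower), 364 with median centring (342 higher, 22 lower), 419 with quantile normalization (284 higher, 135 lower), 1176 with voom, 2 without a trend, 107 with WT fitted alone and 80 to 515 with a library left out. Recovery in the knockout gave 235 (77 higher, 158 lower), 571 with TPM (88 higher, 483 lower), 73 with median centring (44 higher, 29 lower), 147 with quantile normalization (86 higher, 61 lower), 117 without a filter, 401 with voom, 0 without a trend, 49 alone and 22 to 518 with a library left out. The genotype counts of 20 at 0 min, 15 at 30 min and 1 for the difference in recovery became 829, 21 and 125 with voom, and 3 to 31, 8 to 124 and 1 to 34 with a library left out.

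Signs changed only for log2 changes that were not called: 25 of 878 values over all alternatives. For the average, NR4A1 was -0.14 with TPM scaling and -0.051 to 0.17 with a library left out, and EGR3 was -0.017 to 0.76. With a library left out, recovery in the knockout was -1.18 to 0.37 for EGR3 and -0.31 to 1.54 for EGR4. The genotype difference at 0 min was -0.89 to 0.31 for EGR4, -0.24 to 0.89 for IER2 and -1.28 to 0.54 for IER3. At 30 min it was -0.62 to 0.32 for EGR2, -1.73 to 0.12 for EGR4 and -0.57 to 0.57 for IER3, whose value of -0.00029 also turned to 0.0036 with a pseudocount of 5, 0.052 with TPM and 0.055 with voom. The difference in recovery was -1.44 to 0.41 for EGR4, -0.24 to 0.89 for IER2 and -0.54 to 1.28 for IER3. With a library left out, its group's lone library was assumed to vary like the other groups. The cause of these changes was not tested. EGR2, EGR3 and EGR4 had 10 reads or fewer in every library.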
